A study of Mus musculus with 16 samples.

Results

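The Ifit family (interferon-induced proteins with tetratricopeptide repeats) was followed through primary mouse hepatocytes that were given itaconate, a lipid mixture or both. Its 4 members, *Ifit1*, *Ifit2*, *Ifit3* and *Ifit3b*, are 4 of the 55450 genes of the count table, picked by symbol. They were chosen from earlier results of these data, in which they were lower in itaconate-treated than in untreated hepatocytes. Their values in that comparison are therefore given as a description, with no test. All 4 members passed the filter on low values, a mean of at least 1 CPM (the unit of counts scaled to library size) over the 16 libraries, and 11675 genes in all did so.

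The hepatocytes came from the livers of wild-type mice (young adult males of the C57BL/6J strain by the study's methods, and the labels give no age or sex), and were kept overnight in DMEM with serum and insulin-transferrin-selenium. Untreated cells received nothing further, itaconate cells received 10 mM sodium itaconate, lipid cells received a chemically defined mixture of fatty acids and cholesterol diluted 10-fold, and lipid + itaconate cells received both agents. Each group had 4 bulk RNA libraries, with replicate letters A, B, C and D, and each letter holds 1 library of each treatment. The labels do not say whether the letters stand for separate animals or cultures, so the p-values measure the spread between these libraries, which may be technical. No interferon, virus or other immune stimulus was added to any group. Library totals ran from 22346049 to 35512004 expected counts. Lipid + itaconate replicate B stood apart from the other libraries of its group (chi-square per gene of 106 to 147 against them, and at most 64.5 for any other pair of replicates), and the members' results that include it are also given without it.

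IFIT proteins are cytoplasmic RNA-binding proteins of the innate antiviral response. IFIT1 binds viral RNA whose cap lacks the methyl mark of host mRNA, and IFIT2 and IFIT3 form complexes with other family members. Their genes carry interferon-stimulated response elements (ISREs) in their promoters, which are engaged once an interferon has bound its receptor, and many cells, hepatocytes included, keep a low level of the transcripts without added interferon.

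The 4 genes lie in 1 cluster on mouse chromosome 19, all on the plus strand. In GENCODE release M21 (GRCm38) *Ifit2* spans chr19:34550694-34576419, *Ifit3* chr19:34583531-34588731, *Ifit3b* chr19:34607970-34613401 and *Ifit1* chr19:34640871-34650009. The promoters are shown because 3 of the 4 members hold the same pair of ISRE cores in them. Each stretch was read 5′ to 3′ from the RefSeq promoter windows of GRCm38.p6 and runs from 20 bases before the first match to 30 bases after the second. For *Ifit2*, which held no match, the bases at the same distance from the start as in *Ifit1* are given. Capitals mark the ISRE core, GAAANNGAAA, which is read here on its other strand as TTTCNNTTTC. None of these stretches overlapped an annotated GENCODE gene.
Ifit1, chr19:34640765-34640843: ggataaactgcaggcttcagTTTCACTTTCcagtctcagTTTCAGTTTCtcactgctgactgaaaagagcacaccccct
Ifit3, chr19:34583353-34583446: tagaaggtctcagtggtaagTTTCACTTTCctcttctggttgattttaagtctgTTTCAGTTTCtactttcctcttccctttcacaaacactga
Ifit3b, chr19:34607749-34607842: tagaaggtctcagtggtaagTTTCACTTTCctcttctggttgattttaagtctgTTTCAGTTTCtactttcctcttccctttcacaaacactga
Ifit2, chr19:34550570-34550648: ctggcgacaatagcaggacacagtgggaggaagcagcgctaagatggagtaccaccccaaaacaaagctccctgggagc

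*Ifit1*, *Ifit3* and *Ifit3b* each held 2 ISRE cores in the 250 bases before the start, and the matched letters were the same pair in all 3 genes. Among all 32817 promoter windows, 2.97% held at least 1 ISRE core in these 250 bases and 0.18% held 2. The first core of *Ifit1* began 104 bases before the start, that of *Ifit3* 156 bases and that of *Ifit3b* 188 bases. The stretches of *Ifit3* and *Ifit3b* are letter for letter the same, and over 224 aligned positions their promoters were 96.9% identical. The 2 windows of *Ifit2*, 1 for each of its RefSeq starts, held no ISRE core, and the first held 1 match to the core of the gamma-activated site (GAS, TTCNNNGAA), which 7.01% of all windows held. No GAS core overlapped an ISRE core in these windows. A match is a description of the letters, and no match says only that they are not in these 250 bases. The pair of cores before *Ifit1* (chr19:34640785-34640794 and chr19:34640804-34640813) also lies in the promoter window of *Ifit1bl2*, which starts from the opposite strand. The map of the matches places these pairs by distance from the start.

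**Figure D1:**
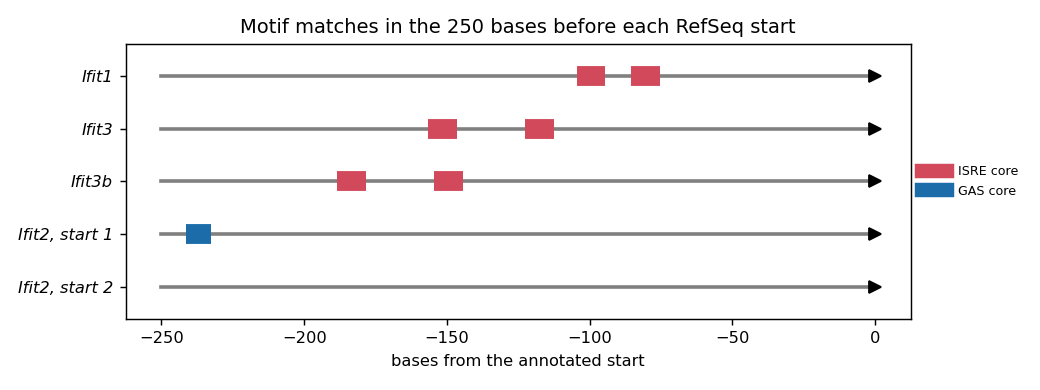
Matches to the ISRE core (red) and the GAS core (blue) in the 250 bases before each RefSeq start of the 4 members, with distance from the start in bases on the horizontal axis and an arrowhead at the start. Ifit1, Ifit3 and Ifit3b hold 2 ISRE cores each, and Ifit2 has 2 windows with none.

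In untreated hepatocytes *Ifit3* and *Ifit1* were the most abundant members, and *Ifit2* the least. Per length of transcript, computed from the expected counts and the exon length of each gene (TPM, a level scaled to both length and depth), *Ifit3* stood at 125 ± 49.1 TPM (SD, n = 4) and *Ifit1* at 111 ± 38.0 TPM. *Ifit3b* followed at 32.4 ± 12.4 TPM, and *Ifit2* stood at 4.97 ± 1.85 TPM. The means of *Ifit1* and *Ifit3* differed by less than their spread over libraries. Within each untreated library *Ifit3* was the higher, with a per-length ratio of *Ifit1* to *Ifit3* of 0.850 to 0.964. *Ifit3b* and *Ifit2* each lay below them in all 4 untreated libraries. In lipid + itaconate hepatocytes the order of the first 2 means turned, with *Ifit1* at 27.1 ± 9.37 TPM and *Ifit3* at 21.6 ± 4.41 TPM, again within their spread. Their ratio within a library ran from 0.879 to 1.40. Both were above *Ifit3b* at 4.42 ± 0.850 TPM and *Ifit2* at 2.01 ± 0.363 TPM. The values below are CPM, which compare libraries for 1 gene.

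*Ifit1*, which encodes the member that binds RNA with an incompletely methylated cap, stood at 127, 66.5, 104 and 159 CPM in untreated libraries A, B, C and D. With itaconate it stood at 56.2, 33.5, 39.1 and 58.9 CPM, and with lipid at 44.2, 31.4, 35.7 and 55.9 CPM. With both agents it stood at 29.6, 15.8, 29.0 and 36.3 CPM. All 4 untreated libraries were above every treated library, and the itaconate and lipid groups overlapped along most of their range.

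*Ifit3*, whose protein joins IFIT1 and IFIT2 in complexes, stood at 97.8, 45.3, 74.5 and 123 CPM in untreated libraries A to D. Itaconate libraries held 37.4, 24.1, 29.1 and 35.4 CPM and lipid libraries 24.7, 16.8, 24.5 and 33.5 CPM. Lipid + itaconate libraries held 15.3, 11.8, 13.6 and 17.5 CPM. The highest lipid + itaconate library was thus below the lowest itaconate library and above the lowest lipid library only.

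*Ifit3b*, a close copy of *Ifit3*, stood at 30.2, 13.2, 22.1 and 35.3 CPM in untreated libraries A to D. It stood at 10.4, 5.77, 6.44 and 10.9 CPM with itaconate and at 6.17, 4.40, 5.59 and 8.51 CPM with lipid. With both agents it stood at 3.47, 2.89, 3.22 and 4.12 CPM, so that these 4 libraries were below all 12 others.

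*Ifit2*, whose protein binds AU-rich RNA and pairs with other members, was the least abundant and the least separated. Its untreated libraries A to D held 10.2, 3.79, 6.90 and 9.63 CPM, and its itaconate libraries 4.61, 3.07, 5.12 and 4.78 CPM. Its lipid libraries held 4.59, 3.72, 5.96 and 6.35 CPM, and its lipid + itaconate libraries 2.96, 2.58, 3.52 and 3.15 CPM. Untreated B lay inside the range of the itaconate and lipid groups. These values rest on 67 to 270 counts per library, against 411 to 4465 for *Ifit1*.

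**Figure D2:**
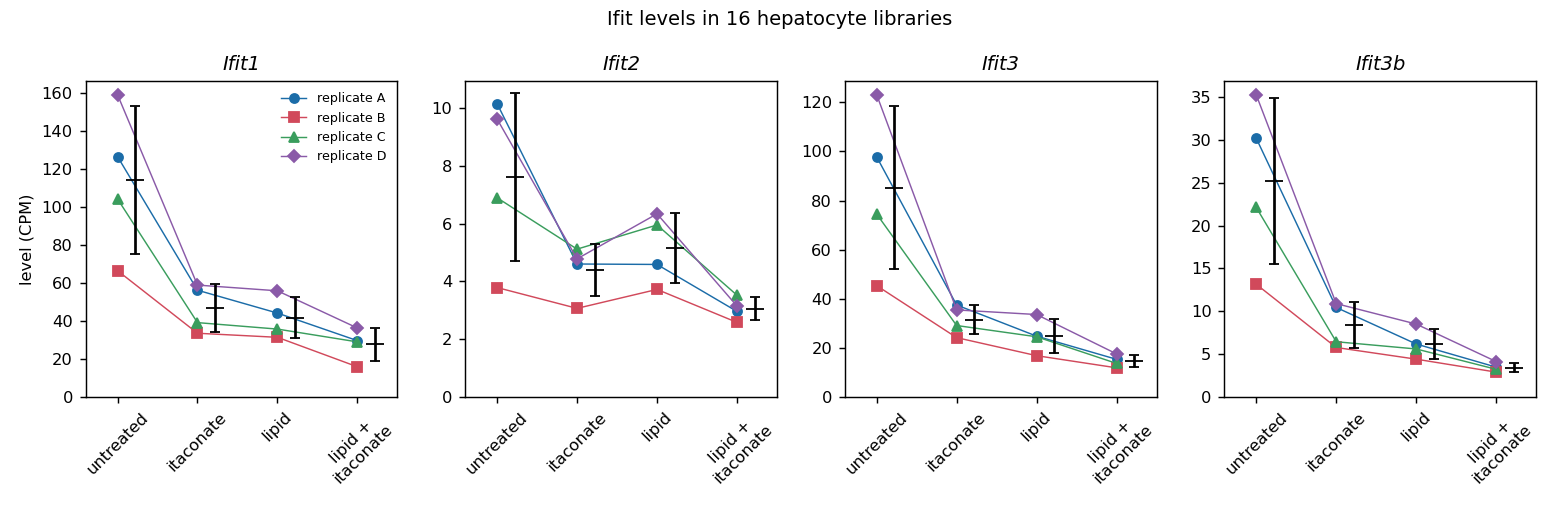
Level of each member in CPM (vertical axes, from 0, scaled for each gene) in the 4 treatment groups. Coloured points joined by lines are the libraries of 1 replicate letter, and black bars are the mean ± SD of 4 libraries. Every line ends lower with both agents than it starts, and letter B is the lowest of the 4 letters in every group.

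The letters differed in level across the whole family. Letter B was the lowest of the 4 in all 16 combinations of member and treatment, and letter D was the highest in 12 of them. The libraries were therefore also compared within letters, where all 4 members were lower in 4 of 4 letters in each of the 4 comparisons below. The smallest of these 64 differences was that of *Ifit2* in letter B between lipid and untreated cells (−0.02 on the log2 scale). In itaconate against untreated cells these signs follow in part from the choice of the members, and both lipid comparisons share libraries with that one. The share of all genes lower in 4 of 4 letters is not given, so nothing is read from this count. Tests are those of edgeR's quasi-likelihood model of all 16 libraries with treatment and letter as terms, with Benjamini-Hochberg adjustment over the 11675 genes, and a gene was called at an adjusted p under 0.05. The replicate letter bears on the calls, and for the members, effectors, pathway lists and hepatocyte and macrophage markers the counts from a model without it are given where a reported call was lost.

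In itaconate-treated against untreated hepatocytes, the comparison that chose the members, *Ifit3b* was 66.0% lower (log2 fold change −1.56 ± 0.12 SE), *Ifit3* 61.6% lower (−1.38 ± 0.11) and *Ifit1* 58.1% lower (−1.26 ± 0.09). *Ifit2* was 40.9% lower (−0.76 ± 0.16). For *Ifit1*, *Ifit3* and *Ifit3b* every itaconate library was below every untreated library, and for *Ifit2* the groups overlapped. As background, 3.86% of all genes tested had 4 itaconate libraries below 4 untreated ones, while 2.95% were called lower and 1.96% called higher. Nothing is read from the members' values against these shares.

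In lipid-loaded hepatocytes itaconate was also followed by lower levels of the whole family, in 8 libraries outside the comparison that chose it. The model behind these tests took its spread and letter terms from all 16 libraries, those of that comparison included. All 4 members were called lower in lipid + itaconate against lipid cells, where 1.26% of all genes were called lower and 1.32% higher. *Ifit3b* fell by 44.1% (log2 fold change −0.84 ± 0.14 SE, adjusted p = 0.00712), *Ifit3* by 40.9% (−0.76 ± 0.12, adjusted p = 0.00435) and *Ifit2* by 40.4% (−0.75 ± 0.17, adjusted p = 0.0342). *Ifit1* fell by 34.5% (−0.61 ± 0.09, adjusted p = 0.00290). The groups did not overlap for *Ifit2* and *Ifit3b*, as for 2.85% of all genes, and they overlapped for *Ifit1* and *Ifit3*. An exact two-sided permutation test of the 8 libraries without regard to letter gave p = 0.0286 for *Ifit2* and *Ifit3b*, the smallest it can give, p = 0.0571 for *Ifit3* and p = 0.0857 for *Ifit1*.

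These calls depended on the letter. In edgeR without the letter none of the 4 passed (adjusted p = 0.319 to 0.492, all 4 at an unadjusted p under 0.05), and DESeq2 with the letter called all 4. Fitting only these 8 libraries with the letter left 1 call, *Ifit3*. Without lipid + itaconate replicate B all 4 remained called lower, with log2 fold changes of −0.55 for *Ifit1*, −0.86 for *Ifit2*, −0.85 for *Ifit3* and −0.95 for *Ifit3b*. The call of *Ifit2* was lost when a single library was left out, namely replicate A or D of the lipid + itaconate group or replicate B, C or D of the lipid group (adjusted p = 0.0764 to 0.133). Leaving out all libraries of letter A or of letter D left 2 calls each, and *Ifit3b* was lost in both (adjusted p = 0.0525 and 0.117).

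The lipid mixture alone was followed by lower levels of all members, with larger fitted falls of *Ifit1*, *Ifit3* and *Ifit3b* than of *Ifit2*, a difference between genes that was not tested. This comparison shares the untreated libraries with the one that chose the members, in which those libraries were high. All 4 members were called lower in lipid against untreated hepatocytes, in a comparison where 23.7% of all genes were called lower and 23.8% higher. *Ifit3b* fell by 74.8% (log2 fold change −1.99 ± 0.12 SE, adjusted p = 1.14e-08), *Ifit3* by 70.0% (−1.74 ± 0.11, adjusted p = 1.26e-08) and *Ifit1* by 62.6% (−1.42 ± 0.09, adjusted p = 9.08e-09). *Ifit2* fell by 30.5% (−0.53 ± 0.16, adjusted p = 0.0145). The groups did not overlap for 3 members, as for 15.9% of all genes, and overlapped for *Ifit2*. The exact permutation test gave p = 0.0286 for those 3 and p = 0.229 for *Ifit2*. The call of *Ifit2* was lost in the model without the letter (adjusted p = 0.0952) and without untreated replicate A or D or lipid replicate A (adjusted p = 0.0696 to 0.0846). Its log2 fold change was −0.34 without untreated replicate A and −0.31 without all libraries of letter A.

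Lipid was followed by lower levels of the family in itaconate-treated hepatocytes as well. This comparison shares the itaconate libraries with the one that chose the members, in which they were low. All 4 members were called lower in lipid + itaconate against itaconate cells, where 23.5% of all genes were called lower and 23.5% higher. *Ifit3b* fell by 58.6% (log2 fold change −1.27 ± 0.14 SE, adjusted p = 3.57e-06) and *Ifit3* by 53.9% (−1.12 ± 0.12, adjusted p = 2.90e-06). *Ifit1* fell by 41.5% (−0.77 ± 0.09, adjusted p = 7.18e-06) and *Ifit2* by 29.9% (−0.51 ± 0.17, adjusted p = 0.0244). The groups did not overlap for *Ifit3* and *Ifit3b*, as for 14.8% of all genes. The exact permutation test gave p = 0.0286 for these 2 genes, p = 0.0571 for *Ifit1* and p = 0.0857 for *Ifit2*. Without lipid + itaconate replicate B the 4 members remained called lower. The call of *Ifit2* was lost in the model without the letter (adjusted p = 0.133) and without itaconate replicate B or C or lipid + itaconate replicate A or D (adjusted p = 0.0512 to 0.0909).

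**Figure D3:**
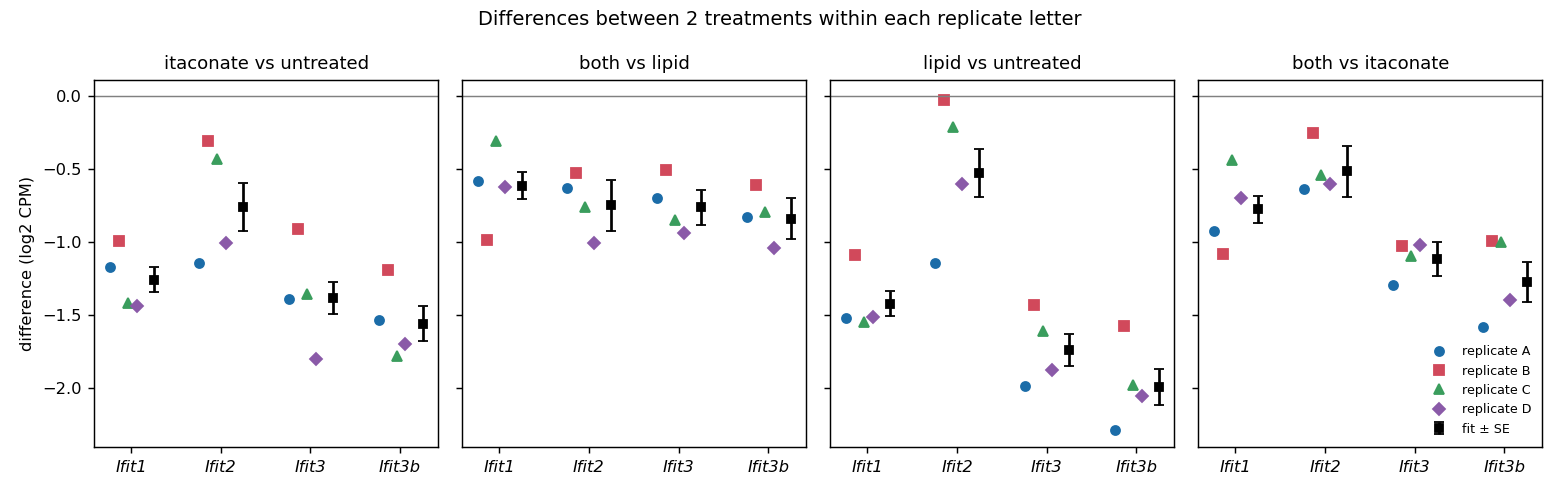
Difference of each member between 2 treatments in log2 CPM (vertical axis), by replicate letter (coloured points) and as the fitted log2 fold change ± SE (black squares), for the 4 comparisons. "Both" stands for lipid + itaconate. All points lie below 0, and the points of itaconate against untreated are those that chose the members.

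With both agents the group mean of *Ifit1* stood at 24.2% of its untreated mean, that of *Ifit3* at 17.1%, that of *Ifit3b* at 13.6% and that of *Ifit2* at 40.1%. Without lipid + itaconate replicate B these were 27.7, 18.2, 14.3 and 42.1% in the same order. On the log2 scale the itaconate difference was smaller with lipid than without it by 0.64 ± 0.12 (SE) for *Ifit1*, 0.62 ± 0.16 for *Ifit3* and 0.72 ± 0.18 for *Ifit3b*, each in 4 of 4 letters. For *Ifit2* it was 0.01 ± 0.24 and positive in 1 of 4 letters. In letter B the difference of *Ifit1* was 0.002, against 0.60 to 1.11 in the other letters. In the model without lipid + itaconate replicate B the estimates were 0.70 for *Ifit1*, 0.52 for *Ifit3*, 0.60 for *Ifit3b* and −0.11 for *Ifit2*. These estimates were not tested, since 1 of their arms chose the members. The same estimate was also taken for other interferon-induced effectors, a list chosen with earlier results of these data known. It was positive for all 45 of them that were tested (median 0.38), against 51.5% of all genes tested (median 0.00). The test of this difference passed for none of the 45 (edgeR, adjusted p = 0.158 to 0.984, 32 at an unadjusted p under 0.05, 10 called by DESeq2).

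The members did not keep fixed proportions to each other. There were 15.4 ± 2.21 (SD, n = 4) expected counts of *Ifit1* for each of *Ifit2* in untreated libraries and 8.21 ± 1.56 in lipid libraries, with ranges (12.5 to 17.6 and 5.99 to 9.62) that did not overlap. The ratio of *Ifit3* to *Ifit3b* was 3.38 ± 0.112 in untreated, 3.88 ± 0.576 in itaconate, 4.04 ± 0.230 in lipid and 4.25 ± 0.117 in lipid + itaconate libraries (4.29 ± 0.0844 over 3 libraries without replicate B). The split between those 2 genes is uncertain. Their longest transcripts were 97.8% identical over 1700 aligned positions, 41.1% of the 75-base stretches of *Ifit3* occurred in *Ifit3b*, and RSEM shared such reads between them, so that 15 of 16 values of each were not whole. With their counts summed, log2 fold changes were −1.42 for itaconate against untreated cells, −0.77 with lipid (adjusted p = 0.00300), −1.79 for lipid against untreated cells (adjusted p = 8.83e-09) and −1.15 for lipid in itaconate-treated cells (adjusted p = 1.72e-06). *Ifit1* shared 5.2% of its stretches, all with *Ifit1bl2*, and *Ifit2* shared none.

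The 2 other genes of the cluster with Ifit symbols were near the limit of detection. *Ifit1bl2*, which shares its promoter window with *Ifit1*, had 8 to 32 counts in untreated libraries and 3 to 9 with both agents, with means of 0.695 ± 0.390 and 0.191 ± 0.0580 CPM (SD, n = 4). *Ifit1bl1* had at most 8 counts in any library. Neither passed the filter, and neither was tested. The nearest protein-coding genes outside the cluster were measured as well, and with lipid alone 23.7% of all genes were called lower and 23.8% higher. *Lipa*, which encodes lysosomal acid lipase and lies on the *Ifit2* side, stood at 85.9 ± 6.82 CPM in untreated and 83.6 ± 6.95 CPM in itaconate libraries (log2 fold change −0.04 ± 0.06 SE, adjusted p = 0.727), and it rose with lipid (0.29 ± 0.06, adjusted p = 0.000847). *Ch25h*, the cholesterol 25-hydroxylase gene beyond it, had at most 10 counts in a library. *Slc16a12*, a monocarboxylate transporter gene on the *Ifit1* side, rose with lipid in cells without itaconate (0.60 ± 0.10, adjusted p = 0.000216). *Pank1*, a pantothenate kinase gene beyond it, fell with lipid (−0.37 ± 0.06, adjusted p = 0.000179) and stood at 0.02 ± 0.06 with itaconate alone (adjusted p = 0.880).

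The pathway that leads to the family was read step by step, and the plot of pathway steps shows the leading genes. Interferon ligands were at or near 0. All 10 ligand genes of the list were under the filter, their summed level was at most 0.25 CPM in any library, and *Ifnb1*, the interferon-beta gene, had 0 to 3 counts. The interferon receptors were expressed, and 5 of 6 were tested. None was called with itaconate in cells without lipid (edgeR, 3 lower at an unadjusted p under 0.05, 0 by DESeq2) or with lipid (1 higher at an unadjusted p under 0.05, 0 by DESeq2). *Ifnar1*, which encodes a chain of the type I interferon receptor, stood at −0.14 ± 0.06 with itaconate alone (adjusted p = 0.160) and rose with lipid (0.22 ± 0.06, adjusted p = 0.00469). *Ifnar2*, which encodes its other chain, fell with lipid (−0.19 ± 0.05, adjusted p = 0.00328) and stood at 0.01 ± 0.05 with itaconate (adjusted p = 0.920). In the lipid comparisons 1 receptor rose and 2 fell without itaconate, and 2 rose with it. Of all genes, 23.8% rose and 23.7% fell with lipid without itaconate, and 23.5% rose and 23.5% fell with it. These shares also apply to the lipid counts of the other pathway lists, and nothing is read from a count near them.

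Of the receptor-bound kinase genes, *Tyk2* rose with lipid in itaconate-treated cells (0.30 ± 0.07, adjusted p = 0.00185) and stood at −0.18 ± 0.07 with itaconate alone (adjusted p = 0.142). *Jak1*, whose product serves the receptors of both interferon types, stood at 268 CPM in untreated, 284 CPM in itaconate, 274 CPM in lipid and 280 CPM in lipid + itaconate hepatocytes (group means), and it was called in none of the 4 comparisons (edgeR, adjusted p = 0.249 to 0.755).

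Genes of nucleic acid sensing and of interferon regulatory factors moved in part, and 13 of 15 were tested. With itaconate alone 5 fell and none rose (edgeR, 0 at an unadjusted p under 0.05, 0 by DESeq2), and the largest falls were in *Dhx58* (−0.68 ± 0.08, adjusted p = 0.000262), *Ddx58* (−0.59 ± 0.09, adjusted p = 0.00104) and *Irf7* (−0.59 ± 0.09, adjusted p = 0.00153). The first 2 encode cytoplasmic sensors of viral RNA, and IRF7 drives the transcription of type I interferons. With lipid present none was called (edgeR, 3 lower and 2 higher at an unadjusted p under 0.05, 2 lower by DESeq2). With lipid alone 9 fell and 3 rose, among them *Irf7* (−1.14 ± 0.09, adjusted p = 1.56e-07) and *Ikbke* (−0.97 ± 0.12, adjusted p = 1.35e-05), a kinase gene of the same route. *Cgas*, the cytosolic DNA sensor gene, rose (1.60 ± 0.23, adjusted p = 4.79e-05), as did *Mavs*, the adaptor gene of the RNA sensors (0.79 ± 0.06, adjusted p = 8.26e-08). *Cgas* was low, at a mean of 0.756 CPM in untreated (15 to 27 counts) and 2.32 CPM in lipid libraries. It passed the filter only through its lipid and lipid + itaconate libraries. In itaconate-treated cells lipid lowered 7 and raised 3. The 3 of 13 that rose were near the share of all genes called higher (23.8% with lipid alone and 23.5% in itaconate-treated cells).

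Among 5 negative regulators, *Usp18*, which encodes an ISG15 protease that restrains the type I receptor and is itself induced by interferon, was called lower in all 4 comparisons (−0.72 ± 0.06 with itaconate alone, adjusted p = 1.31e-06, and −0.39 ± 0.06 with itaconate in cells with lipid, adjusted p = 0.00290). *Socs1* fell with lipid (−1.47 ± 0.22, adjusted p = 7.69e-05) and stood at −0.03 ± 0.20 with itaconate alone (adjusted p = 0.944). *Socs1* was low, at a mean of 2.68 CPM in untreated and 0.942 CPM in lipid libraries (19 to 34 counts). It passed the filter only through its untreated and itaconate libraries. *Socs3*, an inhibitor gene induced by cytokines such as interleukin-6, rose with itaconate in cells with lipid (0.41 ± 0.07, adjusted p = 0.00501) and fell with lipid alone (−0.77 ± 0.07, adjusted p = 2.96e-07). Of 5 genes for cap methylation or the translation initiation factor eIF3, 1 fell with itaconate alone and none rose (edgeR, 1 at an unadjusted p under 0.05, 0 by DESeq2). The gene that fell was *Cmtr1*, the cap 2′-O-methyltransferase gene (−0.25 ± 0.04, adjusted p = 0.00505). With itaconate in cells with lipid 0 of the 5 were called (edgeR, 0 at an unadjusted p under 0.05, 0 by DESeq2). In the model without the letter, edgeR called 2 sensing genes, 0 negative regulators and 0 cap and translation genes (1 lower at an unadjusted p under 0.05 in each of the last 2 lists) with itaconate alone, and 0 in all 3 lists with itaconate in cells with lipid. It called 8 sensing genes lower with lipid alone and 5 with lipid in itaconate-treated cells. With the letter but without lipid + itaconate replicate B it called 6 lower in the latter comparison. Without the letter it called 2 negative regulators lower and none higher with lipid in itaconate-treated cells (3 and 1 with the letter). It called 1 cap and translation gene lower with lipid alone (2 with the letter).

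**Figure D4:**
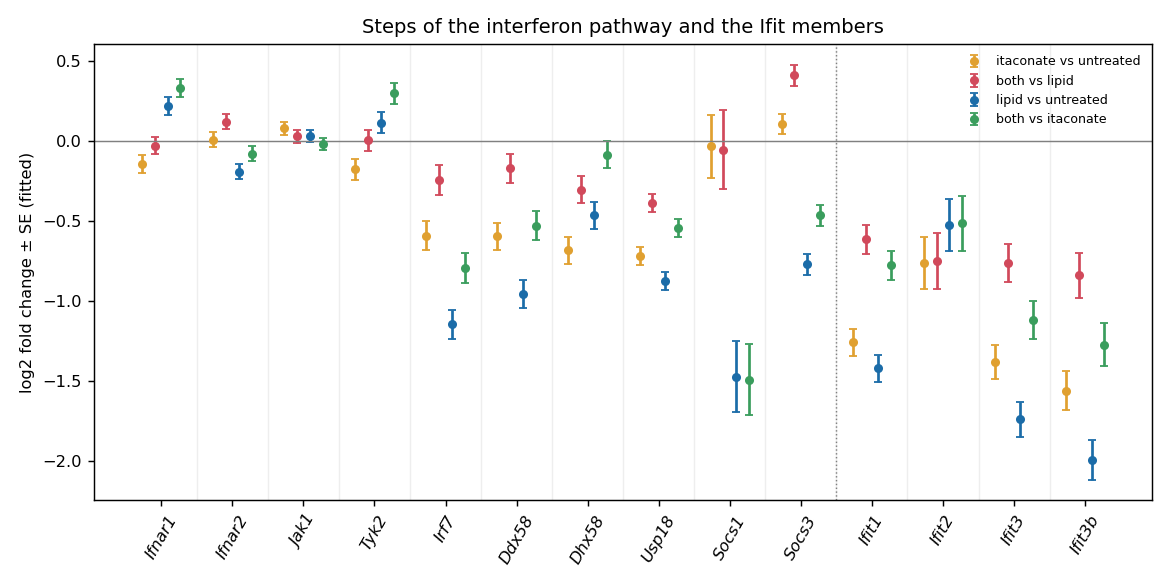
Fitted log2 fold change ± SE (vertical axis) of receptor, kinase, sensing and regulator genes and, right of the dotted line, of the 4 members, in 4 comparisons. "Both" stands for lipid + itaconate. Ifnar1, Ifnar2, Jak1 and Tyk2 lie between −0.19 and 0.33, Usp18 is below 0 in all 4 comparisons, and the members in itaconate against untreated were chosen on those values.

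Other interferon-induced effectors, 47 genes of which 45 were tested, fell with the family. Their list was chosen with earlier results of these data known, so their calls are no independent support. With itaconate alone 39 were called lower, beside 2.95% of all genes tested, with a median log2 fold change of −0.62 (0.00 over all genes tested). None was called higher here or in the lipid comparisons (edgeR, 0 at an unadjusted p under 0.05, 0 by DESeq2). Among those called, the largest falls were in *Oasl2* (−1.08 ± 0.20, adjusted p = 0.00801), *Rsad2* (−1.07 ± 0.08, adjusted p = 1.31e-06), *Gbp2* (−0.93 ± 0.11, adjusted p = 0.000148) and *Psmb9* (−0.91 ± 0.12, adjusted p = 0.000609), which encode an oligoadenylate synthetase-like protein, the antiviral enzyme viperin, a guanylate-binding GTPase and a subunit of the immunoproteasome. Without the letter edgeR called 2 of them lower, with 43 at an unadjusted p under 0.05, and without all libraries of letter D it called 17.

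With itaconate in lipid-loaded cells 8 of the 45 were called lower and 1 higher, beside 1.26% and 1.32% of all genes tested, with a median of −0.18 (0.00 over all genes tested). Among those called, the largest falls were in *Rsad2* (−0.61 ± 0.08, adjusted p = 0.00117), *Gbp2* (−0.60 ± 0.11, adjusted p = 0.0139), *Cmpk2* (−0.51 ± 0.06, adjusted p = 0.000876) and *Oasl1* (−0.45 ± 0.05, adjusted p = 0.000176). The gene that rose was *Iigp1*, an interferon-inducible GTPase (0.30 ± 0.07, adjusted p = 0.0441), which was named after its values were seen and was not called without lipid + itaconate replicate B. The fitted falls of *Ifit2*, *Ifit3* and *Ifit3b* were larger than that of any effector in this comparison, and that of *Ifit1* was smaller than those of *Rsad2* and *Oasl2* (−0.63 ± 0.24, adjusted p = 0.191), and these differences between genes were not tested. The number called lower turned on single libraries. It was 25 when replicate C of the lipid + itaconate group was left out, 4 when replicate A of that group or replicate D of the lipid group was left out, and 5 when any 1 of the other 2 lipid + itaconate replicates, lipid replicate A, itaconate replicates B and C or the 4 untreated replicates was left out. Without the letter it was 0 (edgeR, 4 at an unadjusted p under 0.05), and DESeq2 with the letter called 10.

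With lipid alone all 45 effectors tested were called lower (median −0.85, and 0.00 over all genes tested), in a comparison where 23.7% of all genes were called lower. *Oas1g* (−2.96 ± 0.44, adjusted p = 5.92e-05), *Ifi44* (−1.96 ± 0.15, adjusted p = 1.09e-07), *Oasl2* (−1.94 ± 0.22, adjusted p = 4.28e-06) and *Cmpk2* (−1.45 ± 0.06, adjusted p = 4.16e-10) led. *Oas1g* was near the floor, at a mean of 2.43 CPM in untreated and 0.320 CPM in lipid libraries (1.34 to 13.84 counts). It passed the filter only through its untreated and itaconate libraries. *Sp100*, named here for its low level, passed the filter only through its untreated libraries, at a mean of 1.66 CPM. Its means were 0.963 CPM in itaconate, 0.847 CPM in lipid and 0.779 CPM in lipid + itaconate libraries. The count of 45 includes both genes. In itaconate-treated cells, where 23.5% of all genes were called lower with lipid, 34 effectors were called lower (median −0.46, and 0.00 over all genes tested). *Oasl2* (−1.49 ± 0.23, adjusted p = 0.000115) and *Ifi44* (−1.43 ± 0.16, adjusted p = 3.89e-06) again led, and the model without the letter called 20. Outside the family, 18 genes were called lower in all 4 comparisons, and 8 effectors and *Usp18* were among them. These comparisons share libraries.

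**Figure D5:**
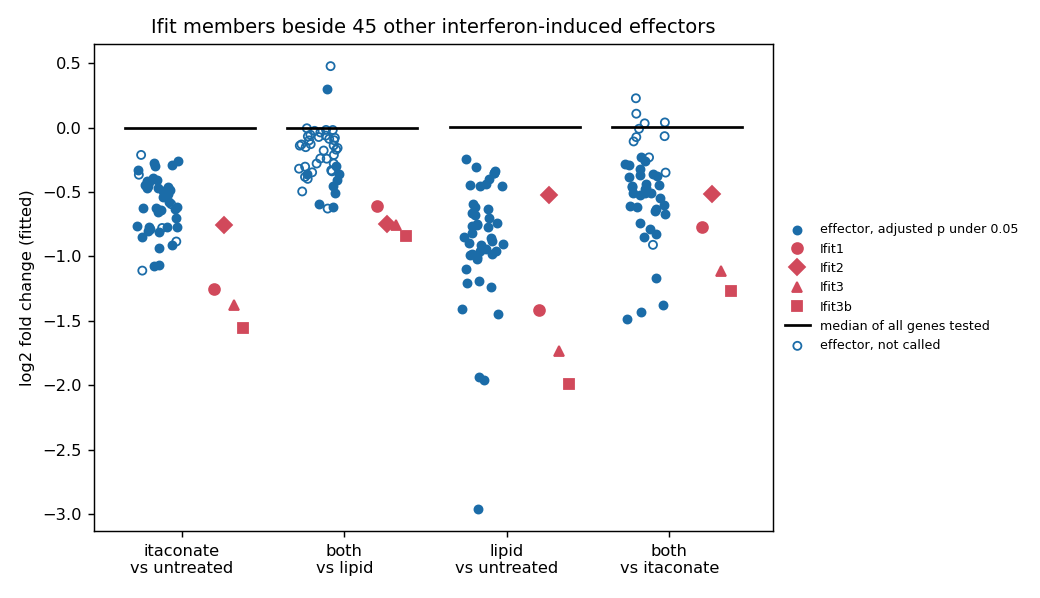
Fitted log2 fold changes (vertical axis) of 45 interferon-induced effectors (blue, filled where called at an adjusted p under 0.05 and hollow where not) beside the 4 Ifit members (red) in 4 comparisons. Black lines mark the median of all genes tested, near 0. Effectors called lower number 39, 8, 45 and 34 from left to right, and "both" stands for lipid + itaconate.

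The genes whose pattern was most like that of the family were found by Pearson correlation over the 16 libraries with the mean of the members' standardised log2 CPM, given as a description since all genes share the libraries and letters. The 8 highest were *Oasl1* (r = 0.98), *Tor3a* (0.96), *Isg15* (0.96), *Cmpk2* (0.95), *Trex1* (0.95), *Slfn8* (0.95), *Xaf1* (0.95) and *Rsad2* (0.95). *Isg15* encodes a ubiquitin-like modifier and *Trex1* a cytosolic DNA exonuclease. *Ifit3* (0.99), *Ifit3b* (0.99), *Ifit1* (0.98) and *Ifit2* (0.93) correlate with the mean to which they contribute. The median over the 45 effectors was 0.89 (0.56 to 0.98) and that over all genes tested −0.01. With letter means removed, 4 of the 8 genes remained among the 8 highest. An ISRE core lay in the 250 bases before a start of 13 of the 36 effectors with a promoter window (36.1%), against 3.46% of all 27025 genes with a window. The effectors were listed with earlier results of these data known.

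Hepatocyte markers were high, with *Alb*, the albumin gene, at 35227 CPM in untreated cells. In bulk RNA, fewer cells of a type and less RNA per cell cannot be told apart. Among all genes, lipid called 23.7% lower and 23.8% higher without itaconate and 23.5% each way with it, which bears on the marker counts here. Of the 6 hepatocyte markers none was called in either itaconate comparison (edgeR and DESeq2, 0 at an unadjusted p under 0.05), and with lipid 2 fell without itaconate and 3 fell and 1 rose with it. In the model without the letter none of these lipid calls remained (smallest adjusted p = 0.173 and 0.0751, 0 and 2 at an unadjusted p under 0.05), and without lipid + itaconate replicate B the counts were 4 lower, and 5 lower and 1 higher. Markers of other liver cells were low but present. *Adgre1*, a defining macrophage gene, stood at 2.19 CPM in untreated, 2.76 CPM in itaconate, 1.20 CPM in lipid and 0.969 CPM in lipid + itaconate cells. Of 7 tested macrophage markers of 10, 1 fell and 1 rose with itaconate alone and none was called with itaconate in cells with lipid (edgeR, 2 lower at an unadjusted p under 0.05, 1 lower by DESeq2), while 3 fell and 1 rose with lipid alone and 6 fell and 1 rose with lipid in itaconate-treated cells. In the model without the letter 0 were called with itaconate alone (1 higher at an unadjusted p under 0.05), 3 fell with lipid alone, and 5 fell and 1 rose with lipid in itaconate-treated cells. The summed level of the 10 markers, most of it *Cd68*, ran from 181 to 289 CPM in untreated, 160 to 245 CPM in itaconate, 232 to 328 CPM in lipid and 215 to 320 CPM in lipid + itaconate libraries. Endothelial markers summed to 6.35 to 15.2 CPM over all libraries, stellate markers to 16.3 to 25.5 CPM, most of it *Reln*, and cholangiocyte markers to 336 to 1171 CPM, most of it *Spp1*, which fell with lipid. *Pecam1* stood at 3.47 CPM and *Krt19* at 0.281 CPM in untreated cells, and *Lrat* had at most 4 counts in a library. Plasmacytoid dendritic cell markers summed to 9.83 to 13.9 CPM, nearly all of it *Tcf4*, with at most 2 counts of *Siglech*, and lymphocyte markers to at most 0.37 CPM, with at most 3 counts of *Cd3e*. Mitochondrial genes held a share of counts that ran from 3.63 to 4.14% in untreated and from 3.99 to 6.01% in lipid + itaconate libraries. The part of these cells, and of the mitochondrial share, in the members' differences was not tested.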

How the data were processed

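Bulk RNA-seq libraries of 4 treatments of primary mouse hepatocytes were analysed, 4 libraries each. The authors trimmed reads with Cutadapt 1.18, aligned them with STAR 2.7.0f to mm10 and quantified GENCODE genes with RSEM 1.3.1, and the deposited values are expected counts per gene, without normalization (versions from the submitters' processing notes). RSEM splits reads that match more than 1 gene. The study's own filter, batch removal and ANOVA came after these values and were not used here. After rounding to whole numbers, edgeR 4.0.16 in R 4.3.3 was used with TMM normalization, a mean of at least 1 CPM, and quasi-likelihood tests with treatment and replicate letter in 1 model of 16 libraries. The members and the gene lists were chosen with earlier results of these data known. Log2 CPM used a prior count of 0.5. TPM were computed here from exon lengths of GENCODE M21, which held all 55450 identifiers. Genes named are the 4 members, other Ifit genes and the nearest 2 protein-coding genes on each side, up to 4 called genes of largest change per pathway list and comparison with the defining genes of each step, the 8 most alike, and defining markers. Self-tests on simulated counts were run.

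The letters were taken to pair the libraries because libraries with the same letter deviated together from their groups' means, with correlations above 0.1 in all 24 pairs (0.144 to 0.469, median 0.263). Pairs of other letters had a median of −0.114. Deviations from a group's mean cancel within the group, so that negative value follows from the positive ones and is no further evidence. None of the 24 pairs of replicates was a duplicate (chi-square per gene of at least 10.0). Alternatives were a model without the letter, RLE normalization, the filterByExpr rule, no filter at all, the 8 compared libraries alone, DESeq2 1.42.0, each library and each letter left out, *Ifit3* and *Ifit3b* summed, exact permutation over 70 arrangements (SciPy 1.17.1) and likeness with letter means removed. At 22346049 to 35512004 counts per library, *Ifit2* had 67 to 270 counts in a library, and the standard errors of the less abundant members were the larger ones. Promoters came from RefSeq (GRCm38.p6), in which all 4 members were matched by symbol. Some members of the pathway lists are not reported here.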

Additional observations from a re-analysis of the deposited data

Results flagged for a closer look

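No library stood apart from the others of its group for any member by Dixon's criterion for 4 values in the 16 combinations of member and treatment. For 3 genes beside the family every letter moved one way with itaconate in cells without lipid and the other way with lipid. They were picked for this pattern from many genes, and the share of all genes that show it is not given. *Iigp1* stood at −0.21 without and 0.30 with lipid (difference 0.51 ± 0.10 SE, adjusted p = 0.158 by edgeR's quasi-likelihood test of the difference), *Irf1* at −0.09 and 0.20 (0.29 ± 0.09, adjusted p = 0.346) and *Slc16a12* at 0.13 and −0.31 (−0.44 ± 0.14, adjusted p = 0.385), so that none of these differences passed the test.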

How the results depend on the processing

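In the 3 tested comparisons all 324 alternative values of the members' log2 fold changes were negative, and 30 lost the call, 23 of them for *Ifit2*. The effect of the replicate block was large. Without it, the members called lower numbered 0 for itaconate with lipid, 3 for lipid alone and 3 for lipid with itaconate, and the effectors called lower numbered 2, 0, 42 and 20 in the 4 comparisons (39, 8, 45 and 34 with it). Over all genes, calls without the block numbered 23 for itaconate alone and 9 for itaconate with lipid (573 and 301 with it). With only the 8 libraries compared, 1 member and 2 effectors were called for itaconate with lipid, where 13 genes in all were called, and 1865 genes were called for itaconate alone. With no filter 1091 and 725 genes were called in the itaconate comparisons and 17 effectors for itaconate with lipid, with filterByExpr 5 effectors, and with DESeq2 509 genes. The exact permutation test, whose p-values were not adjusted, gave p under 0.05 for 2, 3 and 2 members in the 3 tested comparisons. These were the members whose groups did not overlap, which follows from the test, since with 4 libraries against 4 only such groups give p under 0.05. It is thus no further evidence beside the overlap. Leaving out libraries or letters gave 2 to 4 members for itaconate with lipid and 3 to 4 in both lipid comparisons, and 17 to 41, 4 to 25, 40 to 45 and 28 to 36 effectors in the 4 comparisons. With letter means removed, 4 of the 8 most alike genes were kept. The cause of these changes was not tested.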
